A study of Mus musculus with 6 samples.

Results

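The EGF family ligands and the ErbB receptors were read in fibroblast clones with and without FHL2. The members were 10 listed genes: the ligands Hbegf, Areg, Ereg, Btc, Tgfa, Egf and Nrg1, and the receptors Egfr, Erbb2 and Erbb3. Of these, 9 had a probe set annotated to their symbol alone, among 18193 genes measured on the same arrays, and Areg was not analysed here. Where a gene had several probe sets, the one with the highest mean over the 6 arrays led and the others served as a check. The arrays held RNA from 6 mouse embryonic fibroblast clones that had become immortal spontaneously in culture, with 1 array per clone and no treatment named. Clones E, H and J came from FHL2-/- embryonic cells and clones E, F and I from wild type (WT) cells, and a letter shared by the genotypes does not pair clones. The labels call the clones of a genotype biological replicates without saying whether each came from its own embryo. The p-values here set the difference between genotypes against the spread between clones, which may not be independent of each other.

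The ligands of this family are made as membrane-anchored precursors and are released by metalloproteases of the ADAM family. Released ligand brings together pairs of ErbB receptors, whose kinases then start the Ras to ERK and the PI3-kinase cascades. Erbb2 binds no ligand of its own and acts as the preferred partner of the other receptors, while Erbb3 binds neuregulins and has little kinase activity of its own. In fibroblasts Egfr is the best known of these receptors, and HB-EGF and epiregulin are known as ligands that growing fibroblasts make themselves.

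Values are log2 intensities. A difference is the knockout mean minus the wild type mean on that scale, given with the standard error (SE) from limma (n = 3 clones per genotype). Readings are listed in the order of clones E, H and J without FHL2 and of clones E, F and I with it. A gene is said to have risen or fallen where its p, adjusted by Benjamini-Hochberg over all 18193 genes, was under 0.05. The readings of different genes come from different probes, so their order is not an order of transcript levels. Fhl2 fell by 3.02 (SE 0.35, adjusted p = 0.00400), with 6.01, 6.44 and 6.57 without FHL2 and 9.88, 8.57 and 9.64 with it. The labels do not say which exons were deleted, and a probe set outside them would check nothing. Knockout clone H stood apart from clones E and J over all genes, with correlations across genes of 0.964 and 0.968 against 0.991 between E and J; genes are not independent of each other in these correlations. Results are therefore also given without clone H, from fits of 2 knockout clones against 3 wild type clones. The fibroblast markers Vim, Col1a1, Col1a2 and Col3a1 read 12.7 to 13.6 in all 6 clones, and of 10 fibroblast markers 1 (Pdgfra) rose and 2 (Pdgfrb and Thy1) fell.

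Hbegf was the member that passed, and it was lower in every knockout clone. It encodes heparin-binding EGF-like growth factor, a ligand of Egfr and Erbb4. It read 5.99, 7.01 and 6.28 without FHL2 and 8.74, 8.73 and 9.01 with it. The highest knockout clone, H, lay 1.72 below the lowest wild type clone, so the groups did not overlap. The means were 6.43 ± 0.53 (SD, n = 3) and 8.83 ± 0.16 (SD, n = 3), and Hbegf fell by 2.40 (SE 0.26, adjusted p = 0.00344). On the linear scale of the arrays that is 5.29-fold, with a 95% interval of 3.40 to 8.21. Its other probe set, annotated with the same source sequence, read 4.43, 5.46 and 4.69 against 7.30, 6.99 and 7.41 and fell by 2.37 (SE 0.27, adjusted p = 0.00433 over all probe sets). Hbegf passed in all 14 alternative settings, with values of -2.69 to -2.18. An exact two-sided permutation test of its means gave p = 0.10, the smallest value that 20 assignments of 3 clones against 3 allow. Among the 9 members 1 therefore passed, while 19.0% of all genes did with 10% passing as lower and 9.04% as higher in knockout clones. Of the 20 probe sets that read the members, 3 passed over all probe sets (both of Hbegf and 1 of Egfr), beside 16.8% of all probe sets.

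Ereg, which encodes epiregulin, a ligand of Egfr and Erbb4, showed the larger mean difference and the larger spread. It read 4.12, 6.35 and 3.14 without FHL2 and 7.43, 7.0 and 7.27 with it. The groups did not overlap, but clone H lay 0.65 below the nearest wild type clone, and clone J 3.21 below clone H. The knockout SD was 1.65 and the wild type SD 0.22. The difference of -2.70 (SE 0.76) narrowly missed the threshold (adjusted p = 0.0539, with 6.17e-04 to 0.158 over 13 alternative settings). Without clone H, Ereg fell by 3.61 (SE 0.29, adjusted p = 6.17e-04). Leaving out this clone, the nearest to wild type, both enlarged the difference and lowered the SE. Clone J lay below 3.76, the 25th percentile of gene means over the 6 arrays, so the size of the fall near this lower end of the scale is not exact. Ereg was also called with array weights (-3.33) and with arrays centred on their median (-2.75).

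**Figure D1:**
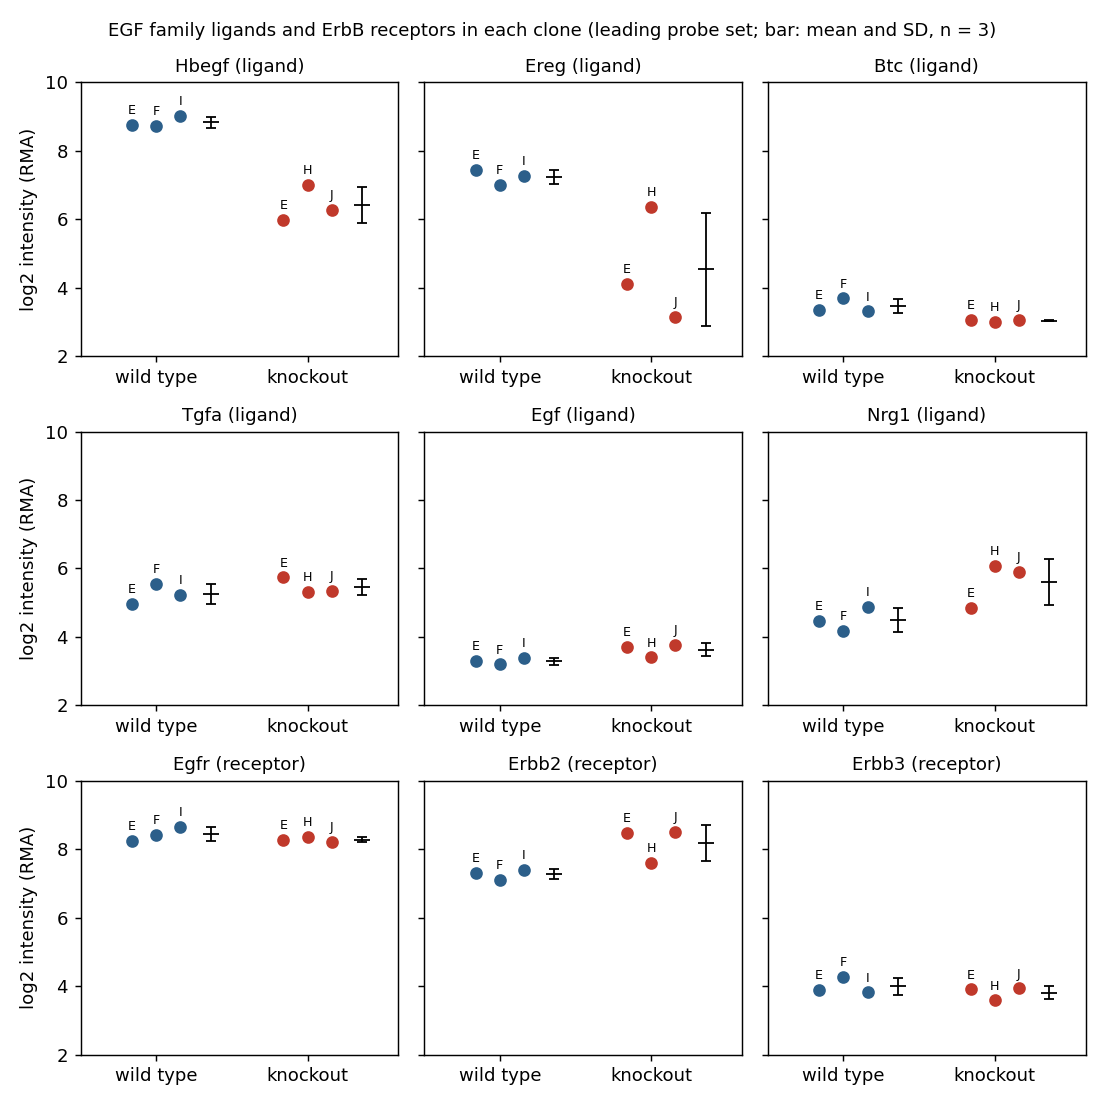
Log2 intensity (vertical axis) of each measured member at its leading probe set in the 3 wild type clones (blue) and the 3 knockout clones (red), with clone letters and with the mean and SD beside each group. Hbegf lies between 5.99 and 7.01 in knockout and above 8.7 in wild type clones, and Ereg spreads from 3.14 to 6.35 in knockout clones.

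The summed levels of epithelial, endothelial, and Schwann and neural markers also lay apart by genotype, though single genes within these lists differed in direction. Those of macrophage and blood and of muscle markers overlapped. The summed level of 9 epithelial markers was 8.39 to 8.51 without FHL2 and 8.65 to 9.12 with it, and 1 of them rose and 1 fell. Krt19, a keratin, fell by 3.05, while Epcam rose by 0.43, and the epithelial cadherin Cdh1 read 2.60 to 2.90 in all clones. Krt5 (0.33) and Cldn7 (0.61) were higher and Krt18 (-1.01) was lower without overlap, and none of these passed. The summed level of 5 endothelial markers was 7.49 to 9.09 without FHL2 and 6.17 to 7.15 with it, with 1 riser, the receptor Tek, which read 8.36, 4.68 and 8.91 without FHL2. The groups overlapped for Pecam1 (0.25), Cdh5 (0.37), Emcn (0.02) and Kdr (-0.30). The summed level of 3 Schwann and neural markers was 6.73 to 7.33 without FHL2 and 7.75 to 9.11 with it. There was 1 fall, that of the tubulin Tubb3 (-3.20). Sox10 (0.13, adjusted p = 0.405) and S100b (0.60, adjusted p = 0.206) differed in the other direction and did not pass. Of 5 macrophage and blood and 4 muscle markers, 0 passed in the limma fit, and 0 had an unadjusted p under 0.05. The median over all probe sets was 4.52 to 4.54 without FHL2 and 4.44 to 4.46 with it. The part of these differences in the results for the ligands and receptors was not tested. In bulk RNA, fewer cells with a transcript and less transcript per cell cannot be told apart.

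Nrg1 was the ligand with the largest positive difference, but its groups overlapped. It encodes neuregulin 1, which binds Erbb3 and Erbb4. It read 4.84, 6.06 and 5.90 without FHL2 and 4.46, 4.17 and 4.87 with it. Clones H and J lay above every wild type clone, and knockout clone E lay 0.04 below wild type clone I. The difference was 1.10 (SE 0.35, adjusted p = 0.0786, with 0.0193 to 0.216 over 13 alternative settings). Without knockout clone E it was 1.48 and passed (adjusted p = 0.0193). Here clone E stood apart from its genotype, and clone H did not.

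The remaining ligands were read low or differed little. Btc, which encodes betacellulin, read 3.06, 3.01 and 3.05 without FHL2 and 3.36, 3.69 and 3.31 with it. These groups did not overlap (-0.41, SE 0.13, adjusted p = 0.0700), yet its other probe set gave 0.03 (SE 0.15). Egf, the founding ligand, read 3.71, 3.40 and 3.77 against 3.29, 3.20 and 3.40, with knockout clone H 0.004 above wild type clone I. Its difference of 0.33 (SE 0.13) did not pass (adjusted p = 0.135), while without clone H Egf rose by 0.45 (adjusted p = 0.0346, with 0.0346 to 0.331 over 12 alternative settings). The means of Btc (3.25) and Egf (3.46) lay below that 25th percentile of gene means, so the sizes of these small differences are not exact.

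Tgfa, which encodes transforming growth factor alpha, read 5.74, 5.31 and 5.36 without FHL2 and 4.97, 5.55 and 5.23 with it, so the groups overlapped. Its difference was 0.22 (SE 0.19, adjusted p = 0.478), with a 95% interval of -0.24 to 0.68. The other 2 probe sets of Tgfa gave -0.04 and 0.42, and neither passed.

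Egfr, the receptor of most of these ligands, had groups that overlapped at its leading probe set. That probe set gave 8.28, 8.35 and 8.22 without FHL2 and 8.24, 8.43 and 8.65 with it. The difference was -0.16 (SE 0.13, adjusted p = 0.461), and its 95% interval of -0.47 to 0.16 holds 0. The 7 probe sets of Egfr disagreed, with 3 below 0 and 4 above. A probe set with a mean level of 8.07 fell by 0.71 (SE 0.19, adjusted p = 0.0472 over all probe sets), with 7.68, 7.84 and 7.62 in knockout clones against 8.05, 8.47 and 8.74 in wild type clones. A further probe set annotated with the same source sequence differed by -0.55 (SE 0.25, adjusted p = 0.196), while the probe set second in level differed by 0.13 (SE 0.27, adjusted p = 0.797). Which Egfr transcripts each probe set reads was not analysed here.

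**Figure D2:**
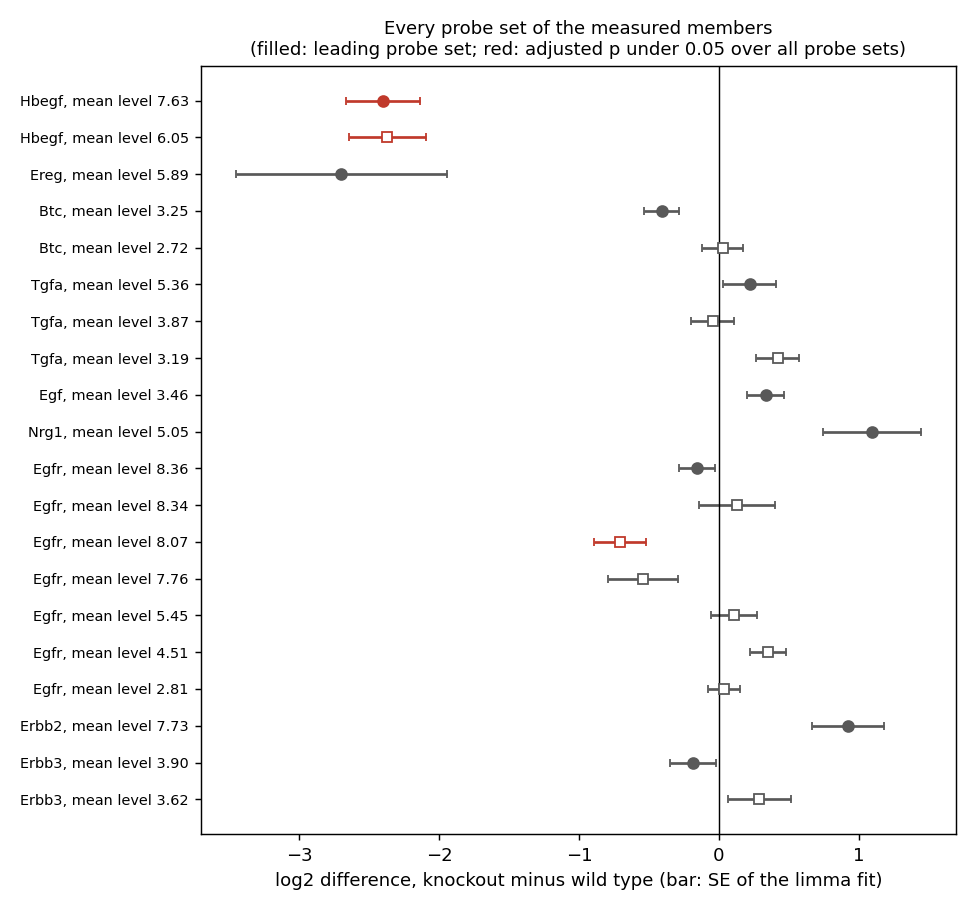
Log2 difference, knockout minus wild type (horizontal axis; bars are the SE), for each of the 20 probe sets of the measured members, with the mean log2 level at the left, filled circles for leading probe sets and red for adjusted p under 0.05. Both Hbegf probe sets lie near -2.4, and the 7 Egfr probe sets spread from -0.71 to 0.35.

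Erbb2, the partner receptor without a ligand, was higher in every knockout clone but did not pass with all clones. It read 8.47, 7.59 and 8.52 without FHL2 and 7.31, 7.11 and 7.40 with it. Clone H lay 0.19 above the highest wild type clone, and clones E and J more than 1 above it. The means were 8.19 ± 0.52 and 7.27 ± 0.15 (SD, n = 3), a difference of 0.92 (SE 0.26, adjusted p = 0.0544, with 0.00146 to 0.159 over 14 alternative settings). Without clone H, Erbb2 rose by 1.22 (SE 0.13, adjusted p = 0.00146), or 2.33-fold. Clone H was the knockout clone nearest to wild type, so leaving it out both raised the difference and lowered the SE. It was also called with array weights (1.12), after a second quantile normalization (0.98) and over the more highly read genes alone (0.92).

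Erbb3, the neuregulin receptor, was read at 3.90, 3.59 and 3.93 without FHL2 and 3.90, 4.27 and 3.82 with it. The groups overlapped (-0.19, SE 0.16, adjusted p = 0.485), and its second probe set gave a value of the other sign, 0.29 (SE 0.22).

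Over the 9 members, 3 were lower and 2 higher in knockout clones without overlap, while 38.9% of all genes had groups without overlap (18.2% lower and 20.7% higher). The median difference was -0.16 for the members and 0.04 over all genes. The median absolute difference was 0.41 for the members and 0.23 over all genes. In 4 members (Hbegf, Ereg, Egf and Erbb2) clone H lay between the other knockout clones and all wild type clones, a count made after the values were seen; 18.5% of all genes showed that order. Relative to the wild type mean, Ereg differed by -3.12 in clone E and by -4.10 in clone J but by -0.89 in clone H. For Erbb2 these differences were 1.20, 1.25 and 0.32. Without clone H, 4 members passed, with Hbegf and Ereg lower and Egf and Erbb2 higher, and 26.1% of all genes did (12.7% higher and 13.4% lower).

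**Figure D3:**
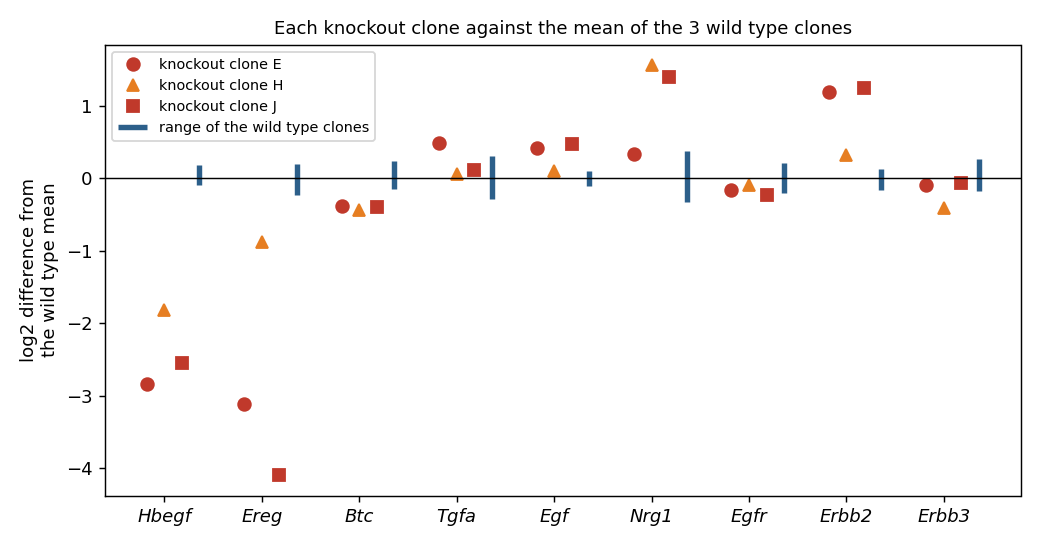
Log2 difference of each knockout clone from the mean of the 3 wild type clones (vertical axis) for each measured member, with the range of the wild type clones as a blue bar. Clone H (orange triangle) lies nearer to 0 than clones E (circle) and J (square) for Hbegf, Ereg, Tgfa, Egf, Egfr and Erbb2, and farther from 0 for Btc, Nrg1 and Erbb3.

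The transcripts most like Hbegf over the 6 clones were Tspan5, a tetraspanin, Mmd and Cobll1. Likeness was the mean absolute difference of log2 values, each gene centred on its own mean, and it was 0.117, 0.119 and 0.119. Their differences of -2.18, -2.45 and -2.39 follow from this choice and are given as description. Tspan5 read 6.95, 7.68 and 6.91 without FHL2 and 9.32, 9.36 and 9.39 with it.

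Ereg lies on mouse chromosome 5 beside other ligand genes of the family, in the order Epgn, Ereg, Areg and Btc in RefSeq's gene table of GRCm38.p6. Its neighbour Epgn, which encodes epigen, differed by 0.05 (SE 0.18) and read 3.27 to 3.91 over all clones. The gene on the far side of Epgn, Mthfd2l, a mitochondrial enzyme of folate metabolism, fell by 0.93 (adjusted p = 0.00751), and Parm1, next after Btc, differed by -1.50 (SE 1.19, adjusted p = 0.439). Values along this stretch differed in size and in sign. Farther out, Cxcl1 rose by 2.25 (SE 0.21, adjusted p = 0.00233). G3bp2 fell by 0.41 (adjusted p = 0.0477) and Uso1 by 0.45 (adjusted p = 0.0415). The other members of the family that were not listed, Nrg2, Nrg3, Nrg4, Epgn and Erbb4, gave 0 calls of 5 with limma and 0 at an unadjusted p under 0.05. Nrg2 differed by 0.36 (SE 0.16, adjusted p = 0.167) at its leading probe set, by -0.04 and -0.05 at its other 2 probe sets and by 0.09 with all of them averaged. Erbb4, the neuregulin receptor with a full kinase, read 3.16 to 3.47 in all 6 clones.

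Promoter sequences were at hand for Egfr and Erbb2, and are shown because these receptors gave differences of opposite sign, neither of which passed. They are the 250 bases before the RefSeq start in GRCm38.p6, on the plus strand, at chr11:16751953-16752202 for Egfr and chr11:98412234-98412483 for Erbb2. Capitals mark the GC box GGGCGG or its reverse complement CCGCCC.
Egfr: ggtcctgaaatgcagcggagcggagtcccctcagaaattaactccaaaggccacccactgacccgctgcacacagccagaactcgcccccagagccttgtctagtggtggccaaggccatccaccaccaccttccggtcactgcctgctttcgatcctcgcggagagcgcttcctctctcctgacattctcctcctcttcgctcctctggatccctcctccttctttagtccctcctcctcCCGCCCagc
Erbb2: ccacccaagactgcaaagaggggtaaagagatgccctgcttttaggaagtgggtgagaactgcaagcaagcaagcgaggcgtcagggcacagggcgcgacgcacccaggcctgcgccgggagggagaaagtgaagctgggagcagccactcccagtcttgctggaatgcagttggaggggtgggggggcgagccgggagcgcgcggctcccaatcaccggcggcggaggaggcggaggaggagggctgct
The Egfr window held 1 GC box and the Erbb2 window 0, and 32.7% of all 32851 promoter windows of this length held at least 1. GC content was 60.8% for Egfr and 66.0% for Erbb2, against a median of 52.4%. The AP-1 motif TGANTCA was searched on both strands because FHL2 is known to bind AP-1 proteins. It was found in 0 windows of Egfr, Erbb2, Areg, Btc, Tgfa and Egf, and in 6.75% of all windows. Hbegf, the member that passed, and Ereg, Nrg1 and Erbb3 were not searched here, so the search does not cover the family. These matches are letters in a window and say nothing of binding.

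Genes that release or hold the ligands changed in both directions. Of 16 measured, 2 rose, 2 fell and 12 did not pass (25% called, against 19.0% of all genes). Adam17, the main protease that frees HB-EGF, epiregulin and TGF-alpha, rose by 1.38 (SE 0.24, adjusted p = 0.0124). It read 8.82, 8.93 and 9.42 without FHL2 against 7.28, 8.02 and 7.74 with it, without overlap. Adam10, which frees betacellulin and EGF, fell by 0.62 (SE 0.09, adjusted p = 0.00826), with all knockout clones between 8.96 and 9.09 and all wild type clones between 9.60 and 9.71. Adam12, a metalloprotease also linked to HB-EGF release, read 8.83, 10.8 and 8.0 against 6.39, 6.30 and 6.21 and rose by 2.90 (SE 0.65, adjusted p = 0.0274). Its call was lost without knockout clone E or any wild type clone (adjusted p = 0.0622 to 0.0908), and its value was 2.12 without clone H. Cd9, a tetraspanin that binds the HB-EGF precursor at the cell surface, fell by 0.95 (SE 0.13, adjusted p = 0.00611), from 10.3 to 10.6 in wild type clones to 9.28 to 9.58 in knockout clones.

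Of 18 measured genes that restrain the receptors, 4 fell, 0 rose and 14 did not pass. The share called, 22.2%, was near the 19.0% of all genes, and the median difference was -0.35 beside 0.04. Errfi1, the feedback inhibitor Mig-6 that binds the ErbB kinase domain, read 7.92, 8.20 and 6.32 without FHL2 and 9.38, 9.21 and 10.6 with it. It fell by 2.26 (SE 0.59, adjusted p = 0.0425), a call kept without knockout clone H alone among the 6 fits that leave out a clone (adjusted p = 0.0194, and 0.0766 to 0.109 in the others); it was also lost with a trended robust prior (0.0557). Cbl, the ubiquitin ligase that marks activated Egfr for degradation, fell by 0.65 (SE 0.17, adjusted p = 0.0413), and its call behaved the same way (0.00470 without clone H and 0.0990 to 0.128 in the others), with losses after a second quantile normalization (0.0543) and with probe sets averaged (0.107) besides. Ptprj, a receptor phosphatase, fell by 1.45 (SE 0.13, adjusted p = 0.00215), a value that was -0.65 when all its probe sets were averaged. Socs5, a suppressor of Egfr signalling, fell by 0.58 (SE 0.10, adjusted p = 0.0108). Without clone H, 9 of these genes were called lower and 2 higher, while 26.1% of all genes were called. Each of 4 fits, those without clone E or J of the knockout and those without E or F of the wild type, left 2 calls.

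Genes that carry the signal inward lay on both sides of 0, and the number called depended on the setting. Of 25 measured, 3 fell, 0 rose and 22 did not pass, so 12.0% were called against 19.0% of all genes. Their mean levels ran from 4.32 to 10.6, while the shares of all genes here cover every level. At an unadjusted p under 0.05 there were 14, and in 17 the groups did not overlap (9 lower and 8 higher), or 68.0% against 38.9% of all genes. The count called was 11 with array weights, 8 over genes at or above the median level, 7 with median centring, 6 without clone H and 5 without knockout clone E. Calls over all 18193 genes also moved, from 3464 to 4926 with array weights and 3494 with median centring. They were 4750 without clone H and 2079 without knockout clone E. The level filter gave 3142 calls among fewer genes. The other 7 genes of this list were not analysed here. Nras, a Ras GTPase, fell by 1.20 (SE 0.15, adjusted p = 0.00505). Sos1, the exchange factor that loads Ras, fell by 0.84 (SE 0.10, adjusted p = 0.00391). Pik3cb, a catalytic subunit of PI3-kinase, fell by 1.43 (SE 0.23, adjusted p = 0.00964). Gab1, a docking protein below Egfr, differed by 0.64 (SE 0.18, adjusted p = 0.0507), with 7.43 to 7.86 in wild type and 8.04 to 8.56 in knockout clones. It passed in 5 of 14 alternative settings.

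Genes known to respond to ERK signalling were called most often among these lists, which were chosen with earlier results of these data known. Of 23 measured, 9 fell, 2 rose and 12 did not pass, so 47.8% were called against 19.0% of all genes. The lowest mean level in this list was 5.94, above the median gene mean of 5.92. The shares of all genes cover every level, so the contrast is not one at like level. The list was split, with 13 genes below 0 and 10 above (median -0.87 beside 0.04 over all genes). Without overlap, 10 were lower and 6 higher, or 69.6% against 38.9% of all genes (18.2% lower and 20.7% higher). Dusp4, a phosphatase of ERK, fell by 2.95 (SE 0.22, adjusted p = 0.00136) and read 4.68, 5.47 and 5.14 without FHL2 against 7.87, 8.28 and 8.0 with it. Spry4, a Sprouty inhibitor of receptor tyrosine kinase signalling, fell by 2.21 (SE 0.12, adjusted p = 5.66e-04), and its knockout readings of 5.14 to 5.46 lay far below the wild type readings of 7.37 to 7.60. Etv4, an ETS transcription factor downstream of ERK, fell by 1.82 (SE 0.18, adjusted p = 0.00273), a value that became -1.06 with all its probe sets averaged. Spred2, a relative of Sprouty, fell by 1.41 (SE 0.21, adjusted p = 0.00749), and its averaged probe sets gave -0.60. The 2 risers, picked for naming with their values in view, were the immediate-early factors Egr2, by 2.39 (adjusted p = 0.0186), and Fosb, by 3.47 (adjusted p = 0.0330). Fos (3.05), Egr3 (1.68), Junb (1.36) and Ier2 (1.08), immediate-early genes also picked with their values in view, read higher in every knockout clone than in any wild type clone but did not pass (adjusted p = 0.0596 to 0.134). Other genes of the list went otherwise. Egr1 (0.21) and Ier3 (0.15) overlapped between the genotypes. Fosl1 fell by 1.61 (adjusted p = 0.00760) and Myc by 0.87 (adjusted p = 0.0250). The call count of the list was 7 without wild type clone E. Over the fits that leave out a clone, calls over all 18193 genes ran from 1661 to 4750. Clone H lay highest among the knockout clones for Dusp4, Spry4, Etv4 and Spred2, but below every wild type clone.

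**Figure D4:**
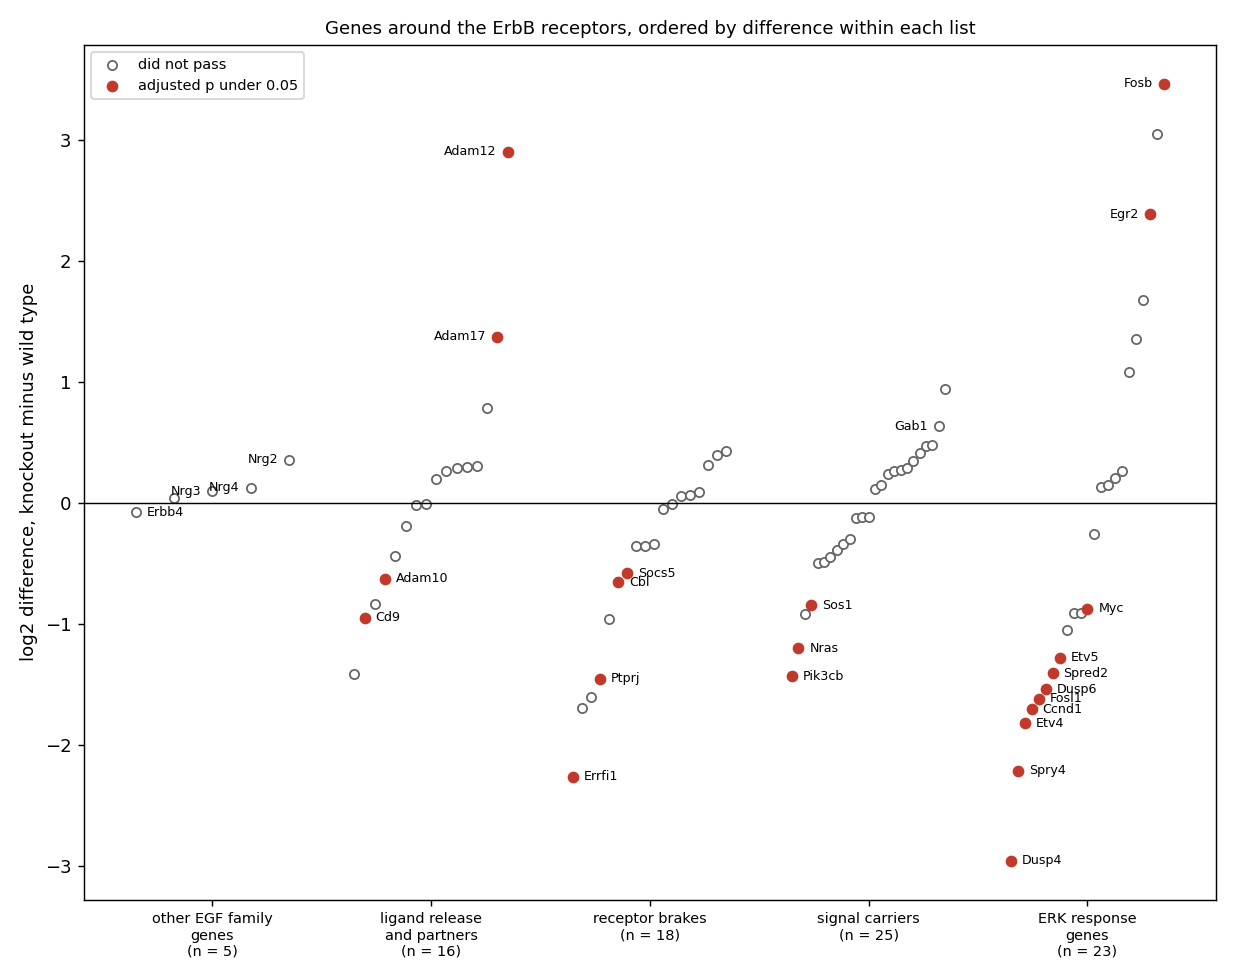
Log2 difference, knockout minus wild type (vertical axis), for the measured genes of 5 lists around the receptors, ordered by difference within each list, with red for adjusted p under 0.05. The ERK response genes run from -2.95 for Dusp4 to 3.47 for Fosb, and none of the 5 other family genes is red.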

How the data were processed

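Biotin-labelled RNA from 6 clones had been hybridised to Affymetrix arrays. The values the authors deposited are log2 intensities made with RMA, per the submitters' processing notes. More decimals are written for wild type clone E than for the other clones, and the RMA version was not given in the sources used here. RMA readings keep some nonspecific signal, so folds at low readings can be understated, and the number of arrays limits the precision (median SE 0.141 over all genes).

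Groups came from the sample titles. Of 45101 probe sets, 64 controls, 932 with several symbols and 9160 without one were left out. The 34945 others read 18193 genes; 34741 matched RefSeq's GRCm38.p6 table by gene ID. The leading probe set of each gene was fitted with limma 3.58.1 in R 4.3.3 (lmFit, eBayes, genotype alone), with Benjamini-Hochberg adjustment at 0.05. The 95% intervals come from the same fit. Figures used matplotlib 3.10.9.

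The members and the 5 lists of related genes were chosen with earlier results of these data known. Named by rule were all members, Fhl2, the 4 genes of each list with the smallest p, and the 3 genes nearest to each member that passed. Some further ERK response genes, cell type markers and neighbours of Ereg on its chromosome were named outside this rule. Summed marker levels are log2 of the sum of linear intensities. The alternatives were 14: a trended robust prior, array weights, quantile normalization again, median centring, genes at or above the median level, probe sets averaged, _x_at, _s_at and _a_at probe sets left out, every probe set tested, and each of the 6 clones left out. In simulated data of 18193 genes with 200 changed, 71% of 2-fold and 87% of 4-fold changes were recovered, and 7 of 165 calls were false.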

Additional observations from a re-analysis of the deposited data

How the results depend on the processing

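Hbegf kept its direction and its call in all 14 alternatives. The count of members called was 4 with array weights, 3 after a second quantile normalization, 2 with a trended robust prior, 2 with median centring, 2 over genes at or above the median level and 1 to 4 when a clone was left out. Ereg was called with array weights (-3.33) and median centring (-2.75) and ran from -3.61 to -2.0 when a clone was left out. Erbb2 was called with array weights (1.12), quantile normalization again (0.98) and the level filter (0.92), and ran from 0.76 to 1.22 when a clone was left out. Btc was called with quantile normalization (-0.46) and the trended robust prior (-0.41), and Egf with array weights (0.41), with 0.26 to 0.45 when a clone was left out. Nrg1 ran from 0.86 to 1.48 when a clone was left out. Signs turned for Egfr without _x_at, _s_at and _a_at probe sets (0.13), where another probe set leads, for Erbb3 with probe sets averaged (0.051), for Nrg3 without wild type clone E (-0.0023, and up to 0.20 without other clones), and for Nrg4 without knockout clone E (-0.02) or wild type clone F (-0.10, and up to 0.38 without other clones), and each of these values missed the threshold. Over all genes 3464 passed, with 1661 to 4750 when a clone was left out and 5876 of 34945 when every probe set was tested. Of 18193 genes, 4926 passed with array weights, 3405 with quantile normalization again, 3272 with the trended robust prior and 3494 with median centring. The level filter kept 3 members and gave 3142 calls among the genes it kept. Receptor brakes gave 9 calls with array weights and 2 to 11 when a clone was left out. Signal carriers gave 11 with array weights, 8 with the level filter, 7 with median centring, 5 with probe sets averaged, 5 with quantile normalization and 3 to 6 when a clone was left out, and ERK response genes gave 7 to 15 then. Beyond the probe sets or clones a setting removes, the cause was not tested. The level filter left out Ereg, Btc, Tgfa, Egf, Nrg1 and Erbb3, and Egf has no probe set once _a_at sets are left out. No paired analysis was possible because the genotypes share 1 clone letter. Low readings limit Btc and Egf, and Ereg in knockout clone J.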
